A study of Homo sapiens with 6 samples.

Results

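Integrins are cell-surface receptors built from 1 alpha chain and 1 beta chain, and 10 integrin subunit genes were followed here in A549 cells, a human lung cancer cell line, with and without a knockout of YTHDF1. The 10 genes were chosen by symbol and are ITGA1, ITGA2, ITGA3, ITGA5, ITGA6, ITGAV, ITGB1, ITGB3, ITGB4 and ITGB5, out of 60617 genes in the deposited table. All 10 were found under 1 Ensembl identifier each, and all 10 passed the filter on low counts. Each group held 3 libraries that the labels number as biological replicates, 3 from YTHDF1 knockout cells and 3 from wild-type (WT) cells of the same line, grown in serum-supplemented medium with no other treatment named. The labels do not say whether the knockout cells are 1 clone or several, or whether the libraries came from separate cultures, so p-values measure the spread among these libraries only, which may be technical. YTHDF1 is a cytoplasmic protein that binds mRNA carrying N6-methyladenosine.

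As background, integrin chains pair in the endoplasmic reticulum and reach the surface only as alpha-beta pairs. The beta chain ITGB1 joins most of the alpha chains, ITGAV joins ITGB1, ITGB3, ITGB5, ITGB6 or ITGB8, and ITGB4 joins ITGA6 alone. By ligand, ITGA1 and ITGA2 with ITGB1 bind collagens, ITGA3 and ITGA6 bind laminins of the basement membrane, and ITGA5 and the ITGAV pairs bind proteins with the short RGD peptide, such as fibronectin and vitronectin. In lung epithelium the laminin receptors hold cells to the basement membrane, while ITGAV pairs also release active TGF-beta from its latent form.

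Library totals lay between 32037107 and 40675628 counts in knockout cells and between 27238817 and 40460782 counts in WT cells, so that 3 counts in a library stood for 0.0735 to 0.111 CPM (CPM, the usual unit for the count of a gene relative to the total of its library, with totals scaled here by TMM factors). YTHDF1 itself was at 48.6, 48.6 and 47.1 CPM in the knockout libraries, against 98.0, 104 and 96.4 CPM in the WT libraries, lower but still detected. Of the markers checked, epithelial genes summed to 4737 to 5036 CPM in knockout libraries and 3740 to 4134 CPM in WT libraries, mostly from KRT7 and KRT8, while EPCAM stayed at 2.56 CPM or less in every library. All 6 epithelial markers were tested as described below, and 4 were higher in knockout and 0 were lower. CDH1 had the largest log2 change of these, 1.76 (SE 0.0931), at 34 ± 0.602 CPM in knockout and 10 ± 1.69 CPM in WT libraries (SD, n = 3 each). Endothelial markers summed to at most 0.526 CPM in knockout and 1.27 CPM in WT libraries, and the T-cell marker CD3E was at 0 in all 6. Fibroblast markers, mostly COL1A1, summed to between 44.4 and 47.6 CPM in knockout and between 32.5 and 38.1 CPM in WT libraries. Of the 5 fibroblast markers tested as described below, 2 were higher in knockout (COL1A1 and LUM) and 3 were lower. The lower ones, COL3A1, PDGFRA and PDGFRB, had WT means of 1.37 CPM or less. Leukocyte and platelet markers, mostly CD14, summed to between 4.64 and 6.32 CPM in knockout and between 12.4 and 14.4 CPM in WT libraries. Mitochondrially encoded mRNAs, a sign of RNA quality, took 3.72% to 3.98% of the counts in knockout libraries and 5.76% to 5.92% in WT libraries, and their part in the results below was not tested.

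All 10 integrin subunits differed between the groups, and the direction was not shared: 7 fell and 3 rose in the knockout libraries. The falls were those of ITGAV, ITGB1, ITGB4, ITGA6, ITGB5, ITGA5 and ITGA3, and the rises were those of ITGB3, ITGA2 and ITGA1. Calls rest on the quasi-likelihood test of edgeR, with p-values adjusted by Benjamini-Hochberg over 18505 genes and a threshold of 0.05 (given below as edgeR adjusted p). By the same rule 53.5% of all genes tested were called, 27.2% higher and 26.3% lower, so being called says little by itself about a gene in this comparison. The 3 knockout libraries did not overlap the 3 WT libraries for any of the 10 genes, while this held for 58.9% of all genes tested. The median log2 fold change (knockout minus WT) of the 10 genes was -0.23, against 0.0011 over all genes tested, and their median absolute log2 change was 0.40, against 0.36.

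When the test asked for a change beyond 1.5-fold, 1 subunit was called in each direction, ITGB3 higher and ITGAV lower. By that rule 14% of all genes tested were called, 8.5% higher and 5.47% lower, so a count of 2 in 10 lies near the background. The 10 genes together took 0.574%, 0.594% and 0.582% of all counts in the knockout libraries and 0.763%, 0.730% and 0.774% in the WT libraries. ITGB1 made the largest part of this sum, at 2738 ± 63.7 CPM in knockout and 3884 ± 140 CPM in WT libraries (SD, n = 3 each). In bulk RNA, fewer cells that use a gene and less of its RNA per cell cannot be told apart, and these values are RNA levels, not receptors on the surface.

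**Figure D1:**
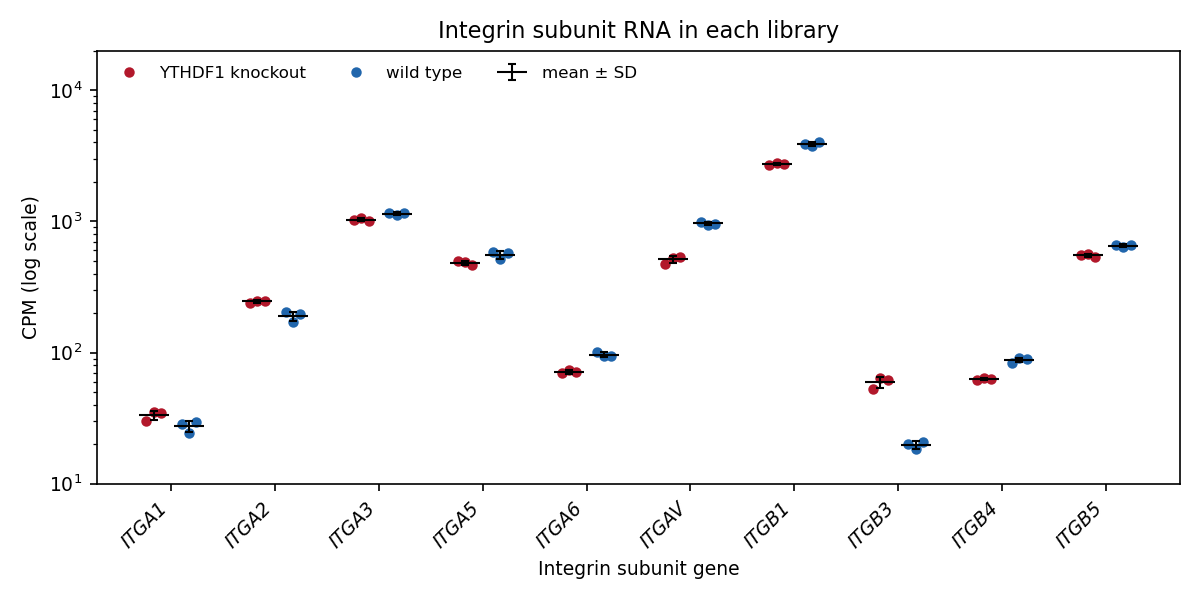
CPM of the 10 integrin subunit genes in each library on a log axis, with knockout libraries (red) left of WT libraries (blue) and black bars for mean ± SD of 3 libraries. ITGB3 is the gene with the widest gap upward, at 52.5 to 64.0 CPM in knockout libraries against 18.4 to 20.9 CPM in WT libraries, and ITGAV has the widest gap downward.

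ITGAV, the alpha chain shared by the vitronectin and TGF-beta binding integrins, had the largest fall of the 10. It was at 477, 527 and 538 CPM in the knockout libraries, against 987, 946 and 960 CPM in the WT libraries. Every knockout library lay far below every WT library. It fell by 46.7%, a log2 change of -0.91 (SE 0.0424, edgeR adjusted p = 1.11e-18), and 6.48% of all genes tested had a lower log2 change. The gene lies on the plus strand of chromosome 2 at chr2:186590065-186680901 (GRCh38, GENCODE 29), and 2.47% of its exon bases overlap a gene on the opposite strand.

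ITGB3, the beta chain that joins ITGAV in the classic vitronectin receptor and ITGA2B on platelets, moved the opposite way. Its level was 52.5, 64.0 and 61.8 CPM in the knockout libraries, against 20, 18.4 and 20.9 CPM in the WT libraries, with no overlap. The mean was 59.4 ± 6.08 CPM in knockout and 19.8 ± 1.24 CPM in WT libraries (SD, n = 3 each), a 3-fold level and a log2 change of 1.59 (SE 0.0745, edgeR adjusted p = 1.22e-18). ITGB3 is at chr17:47253846-47311816 on the plus strand, and 51.6% of its exon bases are also exon bases of ENSG00000259753 on the same strand, a gene listed at 0 counts in all 6 libraries. The labels do not say how reads on shared exons were counted, which leaves the level of ITGB3 uncertain in both groups.

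The other beta chains that pair with ITGAV went both ways. ITGB5, a vitronectin receptor chain of epithelial and stromal cells, was at 553, 559 and 536 CPM in the knockout libraries, against 657, 639 and 665 CPM in the WT libraries. It fell by 16.0%, a log2 change of -0.25 (SE 0.0387, edgeR adjusted p = 1.32e-06). ITGB6, an epithelial chain that activates latent TGF-beta, was at 7.03 ± 0.0700 CPM in knockout and 13.5 ± 0.746 CPM in WT libraries (SD, n = 3 each), and fell by 0.94 on the log2 scale (SE 0.110, edgeR adjusted p = 7.1e-09). A gene on the same strand, ENSG00000285155, shares 20.6% of the exon bases of ITGB6 and was itself lower, at 1.53 ± 0.299 CPM in knockout and 2.89 ± 0.388 CPM in WT libraries. ITGB8, which also activates latent TGF-beta, rose. It was at 18.3, 20.5 and 19.9 CPM in the knockout libraries, against 6.52, 6.75 and 5.87 CPM in the WT libraries, a log2 change of 1.62 (SE 0.105, edgeR adjusted p = 6.19e-15).

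ITGB1, the common partner chain, had the highest CPM of the 10 genes and fell. It was at 2686, 2809 and 2719 CPM in the knockout libraries and at 3857, 3760 and 4036 CPM in the WT libraries. The groups were far apart, and ITGB1 fell by 29.5%, a log2 change of -0.50 (SE 0.0358, edgeR adjusted p = 6.67e-14). ITGB1 lies on the minus strand at chr10:32900319-33005792.

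Both chains of the hemidesmosome integrin, which anchors the basal side of epithelial cells through keratin filaments, fell by similar amounts. ITGB4 was at 61.4, 63.9 and 63.0 CPM in the knockout libraries, against 83.7, 90.9 and 88.8 CPM in the WT libraries, a log2 change of -0.48 (SE 0.0520, edgeR adjusted p = 1.22e-09). ITGA6 was at 69.2, 73.9 and 71.3 CPM in the knockout libraries, against 101, 94.0 and 94.3 CPM in the WT libraries, a log2 change of -0.43 (SE 0.0511, edgeR adjusted p = 8.59e-09). Neither gene had overlapping groups. They lie on different chromosomes, ITGB4 at chr17:75721328-75757818 and ITGA6 at chr2:172427354-172506282, both on the plus strand.

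ITGA3, the other laminin-binding alpha chain, and ITGA5, the fibronectin receptor chain, had the smallest falls. ITGA3 was at 1029, 1055 and 1013 CPM in the knockout libraries, against 1166, 1118 and 1156 CPM in the WT libraries, and fell by 9.99% (log2 change -0.15, SE 0.0372, edgeR adjusted p = 0.000806). ITGA5 was at 498, 486 and 466 CPM in the knockout libraries, against 586, 514 and 576 CPM in the WT libraries. Its log2 change was -0.21 (SE 0.0446, edgeR adjusted p = 0.000156), and the nearest libraries of the groups, 498 CPM in knockout and 514 CPM in WT, lay close together.

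The collagen-binding alpha chains ITGA2 and ITGA1 rose. ITGA2 was at 237, 249 and 249 CPM in the knockout libraries, against 202, 172 and 195 CPM in the WT libraries, a rise of 29.1% and a log2 change of 0.37 (SE 0.0490, edgeR adjusted p = 9.88e-08). ITGA1 was at 30.0, 35.3 and 34.3 CPM in the knockout libraries, against 28.3, 24.4 and 29.3 CPM in the WT libraries, so that the lowest knockout and the highest WT library nearly met. Its log2 change was 0.28 (SE 0.0783, edgeR adjusted p = 0.00318), the largest adjusted p of the 10.

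These genes are neighbours on the plus strand of chromosome 5, with ITGA1 at chr5:52787896-52959210 and ITGA2 at chr5:52989326-53094779, 30115 bases apart. PELO, a gene for a ribosome rescue factor that lies inside ITGA1, shares exon bases with it on the same strand, and PELO with RPL17P21, which had 0 counts in all 6 libraries, covers 5.63% of the ITGA1 exon bases. PELO was also higher, at 57.3 ± 1.06 CPM in knockout and 38.5 ± 1.58 CPM in WT libraries (SD, n = 3 each), with a log2 change of 0.57 (SE 0.0595, edgeR adjusted p = 6.26e-10). Which share of the ITGA1 counts comes from shared bases was not tested.

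The sequences upstream of the neighbouring pair that rose, ITGA1 and ITGA2, and of ITGAV, the gene with the largest fall, are shown to set genes of opposite direction side by side. They are RefSeq promoter windows on GRCh38.p14, plus strand, 5′ to 3′, cut where the GENCODE 29 gene begins, and capitals mark matches to GGGCGG, the GC box bound by SP1, on either strand.
ITGA1: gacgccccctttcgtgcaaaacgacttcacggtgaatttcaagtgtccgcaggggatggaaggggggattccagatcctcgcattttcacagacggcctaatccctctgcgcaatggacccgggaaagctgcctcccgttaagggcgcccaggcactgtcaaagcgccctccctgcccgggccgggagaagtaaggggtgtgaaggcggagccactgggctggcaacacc
ITGA2: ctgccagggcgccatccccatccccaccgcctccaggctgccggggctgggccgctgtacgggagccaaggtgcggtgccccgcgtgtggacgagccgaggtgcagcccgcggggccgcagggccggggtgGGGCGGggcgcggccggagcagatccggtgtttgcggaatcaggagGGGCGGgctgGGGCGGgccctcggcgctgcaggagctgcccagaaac
ITGAV: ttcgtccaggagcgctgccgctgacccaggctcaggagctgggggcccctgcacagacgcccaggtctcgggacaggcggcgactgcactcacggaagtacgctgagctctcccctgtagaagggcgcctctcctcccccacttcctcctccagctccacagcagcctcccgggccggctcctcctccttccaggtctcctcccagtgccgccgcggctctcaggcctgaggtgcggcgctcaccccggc
The stretches are chr5:52787666-52787895 for ITGA1, chr5:52989102-52989325 for ITGA2 and chr2:186589806-186590055 for ITGAV. In these letters ITGA2 shows 3 GC boxes, and ITGA1 and ITGAV show none.

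RefSeq windows were matched for 7 of the 10 genes, with 12 windows over their start sites, and each window was searched over the 250 bases before the start on both strands. No promoter is shown for ITGA3, ITGB3 or ITGB4. GGGCGG was found in 6 of the 12 windows, those of ITGA2, ITGA5, ITGA6, ITGB1 and ITGB5, and in 42.6% of all 35116 windows of the same length. TATAAA, the TATA box, was in 2 of the 12 (ITGA6 and ITGB1) and in 10.7% of all windows. The core of the interferon-stimulated response element was in 1 window of ITGB5 and in 3.02% of all windows. Neither CCAAT (32.0% of all windows) nor TGANTCA, the AP-1 site (6.57%), was in any of the 12. No window among the 12 held more than 1 of these motifs, so no matches of different motifs overlapped.

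**Figure D2:**
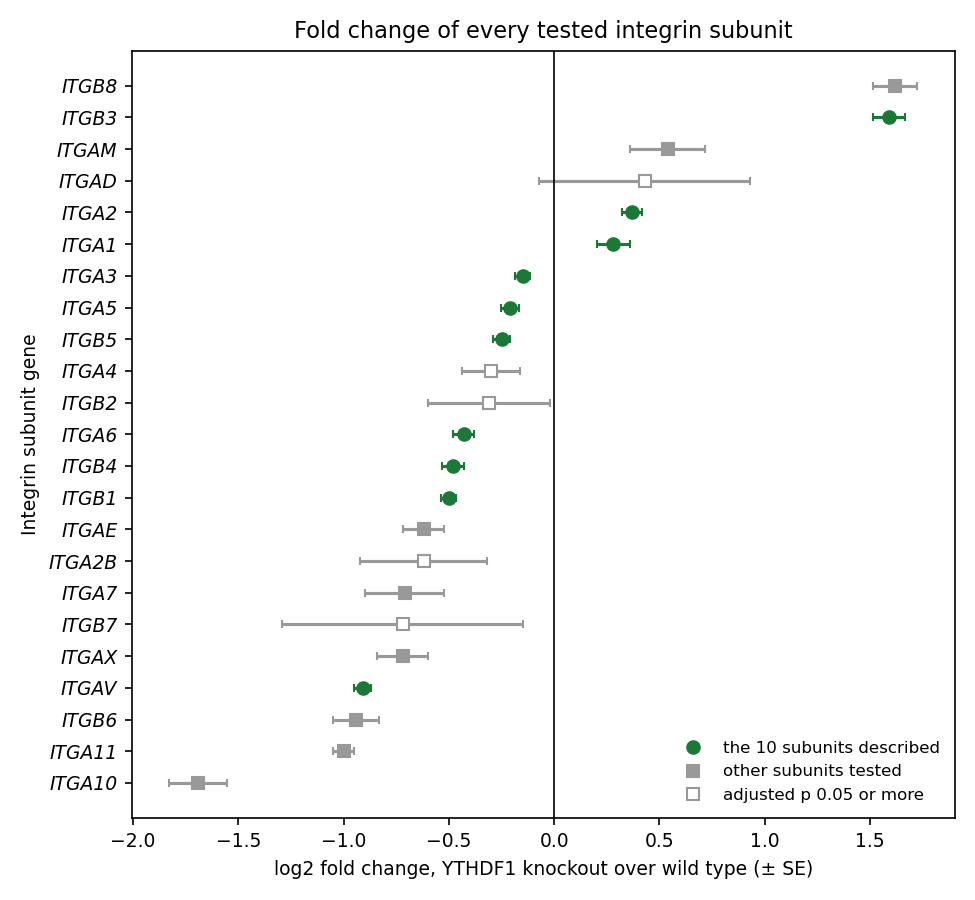
Log2 fold change of knockout over WT libraries (x axis, ± SE of the edgeR fit) for the 23 integrin subunit genes tested, sorted by value, with the 10 subunits described as green circles and open symbols for genes that missed the threshold. ITGB8 and ITGB3 stand apart at the top, at 1.62 and 1.59, and ITGA10 is lowest, at -1.69.

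Levels of different genes were compared per length (FPKM, the CPM value divided by the merged exon length in kilobases). In the knockout libraries the order from high to low was ITGB1, ITGA3, ITGB5, ITGA5, ITGAV, ITGA2, ITGB3, ITGA6, ITGB4 and ITGA1. ITGB1 stood at 455 ± 10.6 FPKM in knockout and 646 ± 23.3 FPKM in WT libraries (SD, n = 3 each, as below), several times above every other subunit in both groups. In knockout libraries ITGA5 (63.8 ± 2.13 FPKM) and ITGAV (62.6 ± 3.94 FPKM) did not differ beyond their spread with this length. In WT libraries the level of ITGAV, 117 ± 2.59 FPKM, could not be separated from that of ITGA3, 117 ± 2.63 FPKM, and both stood above ITGB5 and ITGA5. Both statements depend on the length used. Per length of the longest coding transcript, ITGA5 was at 109 ± 3.63 FPKM and ITGAV at 73.1 ± 4.60 FPKM in knockout libraries. With that length, WT libraries had ITGA3 at 235 ± 5.28 FPKM, ITGB5 at 150 ± 3.01 FPKM and ITGAV at 137 ± 3.02 FPKM, so that ITGAV lay below both. The order of the 10 genes in knockout libraries was the same with either length.

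Ranked by merged exon length among the 23 tested integrin genes, ITGB1 and ITGA2 had the same rank in both groups and the other 8 of the 10 did not, while with the coding transcript length ITGA3 and ITGB5 kept their rank too. ITGAV had rank 5 in knockout and rank 2 in WT libraries with merged exon length, and rank 5 in knockout and rank 4 in WT libraries with the coding transcript length. The ITGA3 level was 1.69 ± 0.114 times that of ITGAV in knockout and 0.996 ± 0.0113 times in WT libraries with merged exon length, and 2.90 ± 0.196 times in knockout and 1.71 ± 0.0194 times in WT libraries with the coding transcript length. ITGB3 had rank 7 in knockout, at 13.5 ± 1.38 FPKM, and rank 10 in WT libraries, at 4.49 ± 0.283 FPKM. It lay above ITGA6 (10.9 ± 0.364 FPKM) and ITGB4 (9.28 ± 0.188 FPKM) in knockout libraries, and below ITGA6 (14.8 ± 0.644 FPKM) and ITGB4 (13.0 ± 0.547 FPKM) in WT libraries. Over the 2128 exon bases that ITGB3 does not share, its level would be 27.9 ± 2.86 FPKM in knockout and 9.28 ± 0.584 FPKM in WT libraries, if reads on shared bases were not counted.

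As a share of all alpha chain FPKM, ITGAV made up 20.5%, 21.9% and 22.9% in the knockout libraries, against 31.5%, 32.4% and 31.3% in the WT libraries. ITGA2 made up 10.8% ± 0.208 in knockout and 6.47% ± 0.315 in WT libraries, or 6.83% ± 0.168 in knockout and 4.23% ± 0.208 in WT libraries with the coding transcript length. ITGA3 made up 36.6% ± 0.426 in knockout and 31.6% ± 0.485 in WT libraries. ITGA5 held 22.2% ± 0.856 in knockout and 19.9% ± 0.680 in WT libraries, although its own level was lower in knockout, since the summed alpha chain level was 288 ± 4.87 FPKM in knockout and 370 ± 13.9 FPKM in WT libraries. These shares are descriptions with no test.

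Among the beta chains that join ITGAV in pairs without ITGB1, the share of ITGB3 was 11.9%, 14% and 14.1% in the knockout libraries, against 4.14%, 3.93% and 4.27% in the WT libraries. ITGB5 held most of the rest, 83.9% ± 1.28 in knockout and 92.9% ± 0.206 in WT libraries. ITGB8 went to 1.27% ± 0.0608 in knockout, against 0.386% ± 0.0352 in WT libraries, and ITGB6 to 1.48% ± 0.0458 in knockout, against 2.63% ± 0.109 in WT libraries. The summed level of these 4 chains was 102 ± 2.23 FPKM in knockout and 109 ± 2.41 FPKM in WT libraries, a smaller relative difference than that of ITGAV, whose level per ITGB3 level was 4.64 ± 0.225 in knockout and 26.2 ± 1.45 in WT libraries. These values use merged exon length. With the coding transcript length ITGB3 held 10.3% ± 0.983 in knockout and 3.12% ± 0.131 in WT libraries. In knockout libraries ITGB8, at 1.55% ± 0.0788, then lay above ITGB6, at 1.04% ± 0.0318. ITGAV per ITGB3 was 4.93 ± 0.239 in knockout and 27.8 ± 1.54 in WT libraries with that length. Over its unshared exon bases alone, the ITGB3 share would be larger.

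**Figure D3:**
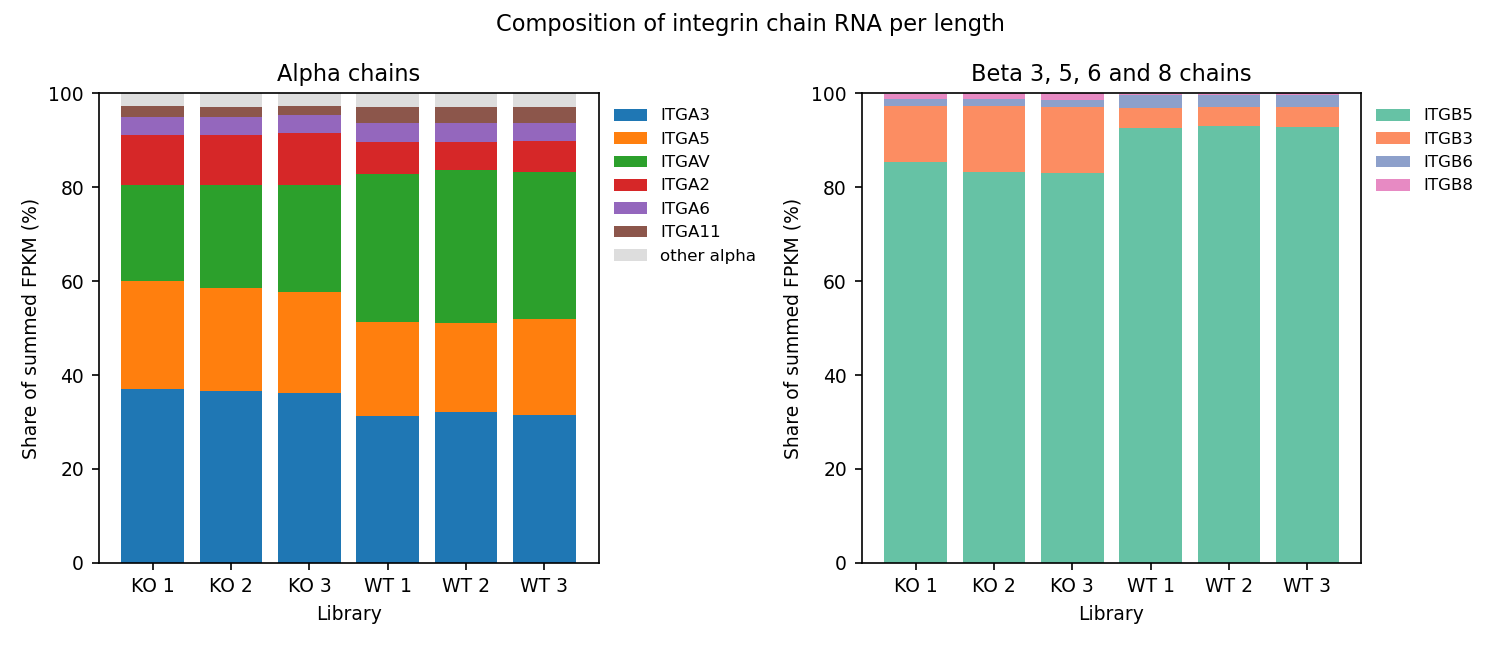
Stacked bars for each library, knockout (KO) left of WT, with the share of summed FPKM in percent for alpha chains (left panel) and for the beta chains ITGB3, ITGB5, ITGB6 and ITGB8 (right panel). The ITGAV block is thinner in the knockout bars, at 20.5% to 22.9% against 31.3% to 32.4%, and the ITGB3 block is thicker, at 11.9% to 14.1% against 3.93% to 4.27%.

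ITGB1 per summed FPKM of the alpha chains ITGA1, ITGA2, ITGA3, ITGA5, ITGA6 and ITGAV was 1.65, 1.66 and 1.65 in the knockout libraries, against 1.79, 1.87 and 1.91 in the WT libraries. The beta chain thus exceeded its listed alpha partners in RNA per length in every library, and by less in the knockout libraries. For the hemidesmosome pair, ITGA6 per ITGB4 was 1.18 ± 0.0169 in knockout and 1.14 ± 0.0988 in WT libraries, which overlapped. ITGB4 held 1.64% ± 0.0175 of the beta chain FPKM in knockout and 1.69% ± 0.0977 in WT libraries.

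Of the 16 other integrin subunits, 13 were tested, of which 2 rose, 6 fell and 5 did not pass the test. Their median log2 change was -0.62, against 0.0011 over all genes tested. The gene at that median was ITGA2B, at 1.1 ± 0.265 CPM in knockout and 1.7 ± 0.269 CPM in WT libraries, which did not pass. Over all genes tested, 27.2% rose and 26.3% fell. Besides ITGB8, the rise was that of ITGAM, a leukocyte chain, at 4.70 ± 0.424 CPM in knockout and 3.24 ± 0.555 CPM in WT libraries (edgeR adjusted p = 0.0112), and 1 rise in place of 2 was called at a threshold of 0.01 or without WT replicate 3. The falls included the collagen-binding chains ITGA10, with a log2 change of -1.69 (SE 0.138), and ITGA11, which fell by 50.1%. ITGA10 was at 3.56 ± 0.505 CPM in knockout and 11.5 ± 0.848 CPM in WT libraries, and ITGA11 at 68.6 ± 3.43 CPM in knockout and 137 ± 7.40 CPM in WT libraries. Of the 4 collagen-binding alpha chains, the neighbours ITGA1 and ITGA2 were thus higher and ITGA10 and ITGA11 lower in the knockout libraries.

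The other falls were those of ITGA7, a laminin-binding chain of muscle (log2 change -0.71, SE 0.186), ITGAE, which binds E-cadherin (-0.62, SE 0.0972), and ITGAX, a leukocyte chain (-0.72, SE 0.121), besides ITGB6. ITGA4, a chain for fibronectin and VCAM1, had a log2 change of -0.30 (edgeR adjusted p = 0.0629) and the platelet chain ITGA2B -0.62 (edgeR adjusted p = 0.0808). The leukocyte genes ITGB2, ITGB7 and ITGAD had 3.08 CPM or less in every library and did not pass the test either, with log2 changes of -0.31, -0.72 and 0.43. For ITGB7, 42.1% of the exon bases lie opposite ZNF740, so its level is uncertain. ITGA8, ITGA9 and ITGAL were not tested, with at most 0.371 CPM in any library.

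Ligand genes of these receptors went both ways, as did all genes tested, of which 27.2% rose and 26.3% fell. Of 11 laminin subunit genes, 10 were tested, and 4 rose and 4 fell, with a median log2 change of -0.09. Taking the 4 with the highest CPM, LAMA5 fell to 1267 ± 21.0 CPM in knockout libraries, against 1678 ± 82.2 CPM in WT libraries, and LAMC1 to 486 ± 10.7 CPM in knockout, against 674 ± 30.8 CPM in WT libraries. LAMB1 had a log2 change of -0.18 (SE 0.0386) and LAMB2 of 0.24 (SE 0.0432), both past the threshold. Chosen after their values were seen, LAMB3 (0.59, SE 0.0575) rose and LAMA3 (-0.19, SE 0.0505) fell, both epithelial laminin chains.

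Among 20 genes for collagens and RGD-type or other matrix ligands, 19 were tested, and 9 rose and 6 fell, with a median log2 change of 0.06. The share called over all genes tested was 53.5%. FN1, the fibronectin gene and the highest of the list in CPM, was at 6206, 5998 and 6085 CPM in the knockout libraries, against 5151, 5234 and 5559 CPM in the WT libraries, a log2 change of 0.20 (SE 0.0347, edgeR adjusted p = 1.11e-05). COL4A1 and COL4A2, the basement membrane collagen chains that assemble together, had log2 changes of opposite sign, 0.45 (SE 0.0478) and -0.53 (SE 0.0426), and COL5A1 had -0.45 (SE 0.0434). VTN, the vitronectin gene, is named here with its values already seen. It was at 52.9, 41.4 and 44.3 CPM in the knockout libraries, against 12.3, 12.3 and 11.1 CPM in the WT libraries, a log2 change of 1.96 (SE 0.0866, edgeR adjusted p = 2.43e-19), and 13.6% of its exon bases are shared with another gene on the same strand. Genes of the list that fell are also named with their values seen. TNC, the tenascin C gene, had a log2 change of -2.40 (SE 0.104), THBS1, the thrombospondin gene, of -1.27 (SE 0.0600), and COL6A3, a collagen chain gene, of -3.64 (SE 0.378), the lowest of the list, where VTN was the highest. COL6A3 was low in both groups, at 0.234 ± 0.173 CPM in knockout and 2.83 ± 0.252 CPM in WT libraries. The collagen chains COL6A1 (0.53, SE 0.0530) and COL6A2 (0.74, SE 0.0741), also chosen with values seen, had higher CPM and rose.

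**Figure D4:**
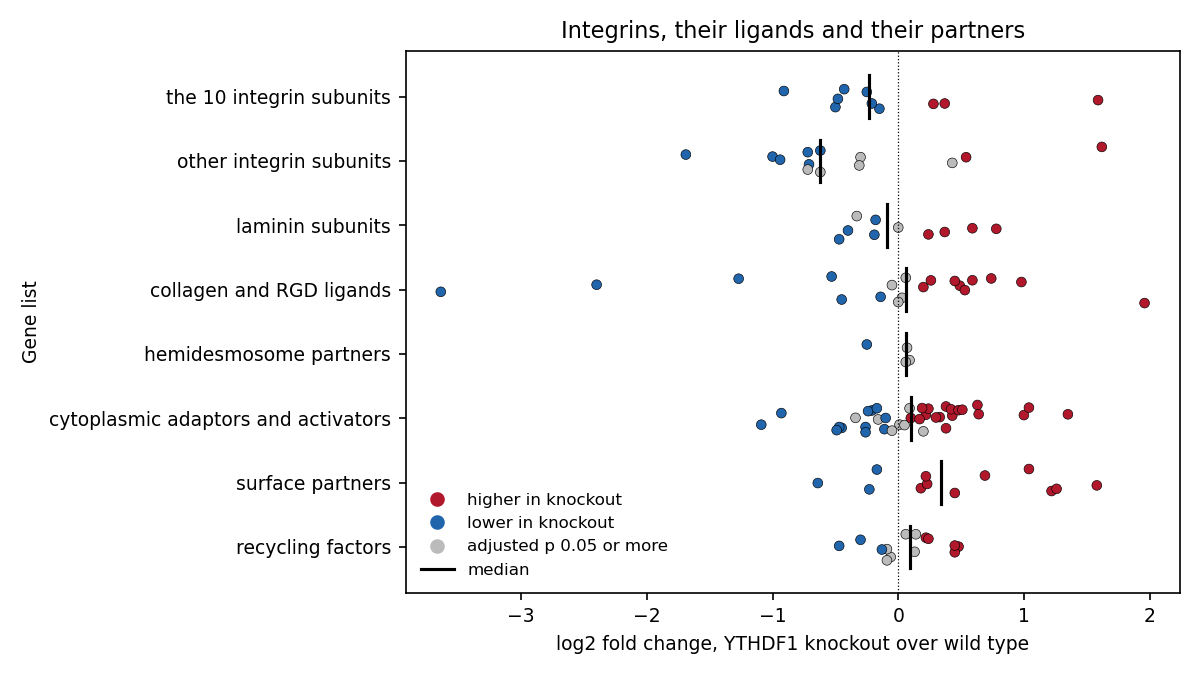
Log2 fold change of knockout over WT libraries for each tested gene (x axis) in the 10 integrin subunits and 7 lists of related genes, with red for higher, blue for lower and grey for genes that missed the threshold, and black ticks for medians. Medians run from -0.62 for the other integrin subunits to 0.34 for surface partners.

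Genes that link integrins to the cytoskeleton were tested for all 37 listed, of which 18 rose, 12 fell and 7 did not pass, with a median log2 change of 0.10. Over all genes tested, 27.2% rose and 26.3% fell. The linking genes named here for their high CPM were split. FLNA, an actin crosslinker that binds beta chain tails, was at 4960 ± 282 CPM in knockout and 5840 ± 272 CPM in WT libraries. ACTN4, an alpha-actinin, had a log2 change of -0.10 (SE 0.0367, edgeR adjusted p = 0.0217), and TNS3, a tensin of mature adhesions, of 0.48 (SE 0.0399). The talins and kindlins, which switch integrins on from inside the cell, are named with their values already seen. Of these 5 genes, TLN1 (log2 change 0.33, SE 0.0406) and FERMT2 (0.63, SE 0.0511) rose, FERMT1 (-0.45, SE 0.0740) fell, and TLN2 (0.01) and FERMT3 (-0.34) did not pass the test. ILK, an adhesion adaptor kinase also named with its values already seen, was counted at only 1.34 ± 0.0715 CPM in knockout and 1.17 ± 0.129 CPM in WT libraries, and 78.5% of its exon bases lie opposite other genes, so its level is uncertain.

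All 12 genes for surface proteins known to sit beside integrins passed the test, 9 higher and 3 lower, with a median log2 change of 0.34. Of all genes tested, 53.5% passed, 27.2% higher and 26.3% lower, and the list as a set was not tested. SLC3A2, which binds beta chain tails as the heavy chain of amino acid transporters, was at 655 ± 12.3 CPM in knockout and 406 ± 16.6 CPM in WT libraries. The tetraspanin CD63 had a log2 change of 0.23 (SE 0.0395), BSG of -0.23 (SE 0.0434) and CAV1, the caveola coat gene, of -0.17 (SE 0.0481). CD47, a partner of the ITGAV and ITGB3 pair that was chosen after its values were seen, was at 152, 155 and 155 CPM in the knockout libraries, against 67.0, 66.0 and 65.0 CPM in the WT libraries, a log2 change of 1.22 (SE 0.047). Log2 changes in this list ran from -0.64 for SDC1 to 1.58 for CD82, both named with their values seen.

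Where 26.3% of all genes tested fell, 1 of the 4 tested among 6 hemidesmosome partner genes fell. This was DST, the plakin gene for a keratin linker, with a log2 change of -0.25 (SE 0.0568, edgeR adjusted p = 0.000338), a call that DESeq2 did not make and whose groups overlapped, at 395 to 476 CPM in knockout and 458 to 556 CPM in WT libraries. PLEC, the plectin gene that ties ITGB4 to keratin, was at 2563 ± 84.9 CPM in knockout and 2445 ± 105 CPM in WT libraries (edgeR adjusted p = 0.129). CD151 and COL17A1 had log2 changes of 0.06 (SE 0.0430) and 0.09 (SE 0.167). Thus the partner genes PLEC, CD151 and COL17A1 did not pass the test, while DST, with the limits just given, and both integrin chains of the same junction fell.

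Among 15 genes for integrin uptake and recycling, 14 were tested, and 5 rose, 3 fell and 6 did not pass, with a median log2 change of 0.09. The shares over all genes tested were 27.2% higher and 26.3% lower. CLTC, the clathrin heavy chain, was at 726 ± 10.3 CPM in knockout and 1007 ± 18.0 CPM in WT libraries, and AP2M1, of the clathrin adaptor, at 230 ± 2.99 CPM in knockout and 284 ± 10.3 CPM in WT libraries. ARF6, a small GTPase of recycling, had a log2 change of 0.45 (SE 0.0463), and VPS35, of the retromer, of -0.13 (SE 0.0422, edgeR adjusted p = 0.00956).

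The genes whose profile over the 6 libraries lay nearest to that of ITGB1 were DDOST, TXNL4A and PPP1CC, among 11134 genes whose mean reached 5 CPM. The measure was the root mean square distance between log2 CPM values centred on their mean, and it was 0.0104, 0.0137 and 0.0175. For ITGB4 they were OTUD3, GBAP1 and HNRNPA3, at 0.0188 to 0.0220, and for ITGAV they were RAB3B, NCAPG and ATPSCKMT, at 0.0255 to 0.0278. None of these 9 genes is an integrin, and with 6 libraries in 2 groups the likeness rests mainly on the difference between the groups.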

How the data were processed

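Total RNA from cultured A549 cells was made into libraries with a stranded TruSeq kit, per the labels' protocols. The authors deposited raw counts per Ensembl gene, 1 column of whole numbers per library. Build GRCh38 and the tools STAR 2.7.0d, featureCounts 2.0.1, Trim Galore 0.6.6 and edgeR 3.32.1 are listed per the submitters' processing notes. The annotation, strand setting and treatment of shared reads were not given in the sources used here. Reads lost on shared exons would lower the counts of genes such as ITGB3.

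Columns were matched to samples by library name. Symbols came from a gene name table for 42000 identifiers and from GENCODE release 29 for 1330, and coordinates and exon lengths came from GENCODE 29 on GRCh38. edgeR 4.0.16 in R 4.3.3 was used with filterByExpr, TMM factors and the two-sided quasi-likelihood test, with group as the model's single term and Benjamini-Hochberg adjustment at 0.05. SE is derived from the fold change and F statistic. FPKM was computed here from the same scaled counts and merged exon length. The test was also run on simulated counts with 200 genes changed. Far more genes, 9893, were called here, so that run does not give the error rate in these data. Within each group, libraries differed beyond sampling noise (chi-square per degree of freedom 4.41 to 6.59), so all 6 were kept.

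Genes named were YTHDF1, the 10 subunits, all tested other subunits, the 4 genes of highest mean CPM in each other list, and the 3 nearest in profile to ITGB1, ITGB4 and ITGAV (pseudocount 0.5 CPM). Some genes that the rule or the lists take in are not reported here. Cell type markers, untested subunits and genes that share exon bases with a named gene are named for those checks, and further genes of the lists are marked as chosen with their values seen. The members and lists were chosen with earlier results of these data known. Alternatives were DESeq2 1.42.0, limma-voom (limma 3.58.1), RLE factors, library size only, other filters, stricter thresholds, a replicate block, leaving out each library and other gene lengths. The floor of 3 counts covers counting error only, while SE and SD also take in the spread among libraries.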

Additional observations from a re-analysis of the deposited data

How the results depend on the processing

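Each of the 10 subunits kept its direction in all 15 alternatives, and ITGB3 and ITGAV also kept their calls in all 15, with log2 changes of 1.53 to 1.67 and -0.94 to -0.85. The other 8 lost their call only with the 1.5-fold built into the test, where the threshold is on the size of the change. Under that setting 1573 genes were higher and 1012 lower, with, higher and lower in that order, 1 and 1 of the 10 subunits, 1 and 3 of the other subunits, 1 and 0 of the laminins, 3 and 3 of the collagen and RGD ligands, 3 and 2 of the adaptors, 5 and 0 of the surface partners, and 0 of the recycling factors and of the hemidesmosome partners in either direction. Rises among the other subunits numbered 1 at a threshold of 0.01 and 1 to 2 with a library left out, 1 without WT replicate 3. Rises among hemidesmosome partners numbered 1 with library size only and 0 to 1 with a library left out, 1 without knockout replicate 1 and 1 without WT replicate 1. DESeq2 called 0 hemidesmosome falls, where 1 was called in the reported fit, and the cause was not tested.

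With a replicate block, 4937 genes were higher and 4766 lower, and the 10 subunits gave 3 and 7. Deviations of same-numbered libraries correlated at -0.0357, -0.0195 and 0.0327, and knockout replicate 1 correlated best with WT replicate 2, at 0.0527. No pairing by number was visible in these values, which do not show whether same-numbered libraries were handled together.

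Levels per length depend on the length used. With the longest coding transcript, ITGAV made up 16.0% of the alpha chain level in knockout and 24.1% in WT libraries, ITGB3 made up 1.69% of the beta chain level in knockout and 0.412% in WT libraries, ITGB1 per summed alpha partners was 1.64 in knockout, and ITGA3 per ITGAV was 2.90 in knockout and 1.71 in WT libraries, where merged exons gave 1.69 in knockout and 0.996 in WT libraries. With exon bases not shared on the same strand, chosen after seeing the data, ITGB3 made up 4.80% of the beta chain level in knockout and 1.20% in WT libraries, where merged exons gave 2.38% in knockout and 0.584% in WT libraries. Subunits with few counts had wide SE, at 0.501 for ITGAD, 0.574 for ITGB7, 0.3 for ITGA2B and 0.291 for ITGB2. The part of depth in their missed calls was not tested.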
